A study of Homo sapiens with 6 samples.

Results

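The matrix metalloproteinases (MMPs), the ADAM and ADAMTS proteases and the tissue inhibitors of metalloproteinases (TIMPs) were examined in DCIS.COM cells with and without knockdown of BCL9. The members were the protein-coding genes with an MMP, TIMP, ADAM or ADAMTS symbol followed by a number, which left out the ADAMTS-like genes. This gave 66 of the 58676 genes listed, with 23 MMP, 4 TIMP, 20 ADAM and 19 ADAMTS genes, among 19821 protein-coding genes. DCIS.COM is an established human breast line of the basal type that serves as a model of ductal carcinoma in situ (DCIS), the lesion in which tumor cells are still held inside the milk ducts. RNA sequencing compared 3 NS control samples with 3 BCL9 KD samples, each from a flask of its own. For the expression test, the text of the methods speaks of 2 biological replicates, but the labels give 3 samples a group and all were used, so whether all 3 are separate biological replicates is not settled. Cells of both groups carried the lentiviral vector PLKO.1 and differed in its short hairpin RNA (shRNA), which was a non-silencing sequence in NS control cells and a sequence against BCL9 in BCL9 KD cells. A single BCL9 shRNA was used, so effects of the hairpin other than the loss of BCL9 cannot be told apart from it. The p-values measure the spread between flasks, and whether these came from separate transductions is not stated.

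MMPs are zinc-dependent proteases that cleave collagens, laminins, proteoglycans and other proteins of the extracellular matrix, and most are made as inactive precursors whose propeptide must be removed. Membrane-type MMPs act at the cell surface, and MMP14 together with TIMP2 binds the precursor of MMP2 and activates it there. Many ADAMs release growth factors, cytokines and receptors from the cell surface, and ADAMTSs are secreted proteases of proteoglycans and procollagens. TIMPs block the active site of MMPs and, in the case of TIMP3, also of several ADAMs and ADAMTSs. In the breast, these proteases are known for remodelling the basement membrane around the ducts, the layer that separates DCIS from the surrounding tissue.

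Promoter sequences were read for the members with an entry in RefSeq (build GRCh38.p14), which were 39 of 66, over the window from 250 bases before to 50 bases after the start site. The promoters shown are those of MMP7 and MMP10, which held a motif of the factor AP-1, and those of MMP14 and ADAM12, of which the first rose and the second fell in BCL9 KD cells and which held no motif searched. They are written from the 5′ end over the 250 bases before the start site, in lower case, with the AP-1 motif in capitals. The windows are chr11:102530748-102530997 on the minus strand for MMP7, chr11:102780629-102780878 on the minus strand for MMP10, chr14:22836335-22836584 on the plus strand for MMP14 and chr10:126388478-126388727 on the minus strand for ADAM12.
MMP7: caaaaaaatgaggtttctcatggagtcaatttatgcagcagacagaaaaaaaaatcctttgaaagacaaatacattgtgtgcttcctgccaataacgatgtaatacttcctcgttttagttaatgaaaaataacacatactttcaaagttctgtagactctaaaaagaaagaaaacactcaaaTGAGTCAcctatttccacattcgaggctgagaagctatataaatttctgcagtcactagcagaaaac
MMP10: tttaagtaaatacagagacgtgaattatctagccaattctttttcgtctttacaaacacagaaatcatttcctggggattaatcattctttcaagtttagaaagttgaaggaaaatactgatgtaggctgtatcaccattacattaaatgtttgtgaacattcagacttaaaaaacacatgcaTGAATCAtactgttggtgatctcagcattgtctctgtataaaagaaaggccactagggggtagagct
MMP14: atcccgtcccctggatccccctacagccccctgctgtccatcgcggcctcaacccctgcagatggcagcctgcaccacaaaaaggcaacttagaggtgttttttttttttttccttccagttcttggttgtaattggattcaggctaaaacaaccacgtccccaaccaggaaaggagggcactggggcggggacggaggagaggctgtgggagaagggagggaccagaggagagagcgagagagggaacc
ADAM12: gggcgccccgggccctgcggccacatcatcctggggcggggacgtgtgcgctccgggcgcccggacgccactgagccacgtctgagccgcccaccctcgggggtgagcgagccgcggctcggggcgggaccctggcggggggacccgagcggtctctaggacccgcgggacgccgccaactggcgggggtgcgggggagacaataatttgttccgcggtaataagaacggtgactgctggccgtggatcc
The motif TGANTCA of AP-1, TTCNNNGAA of STAT factors and CTTTGAT of TCF factors were searched on both strands, and none of the 3 overlapped another in a member. AP-1 motifs were found in 4 of 39 member promoters (10.3%), against 7.71% of all 35116 promoters, in MMP7 and MMP10 from −67 to −61, in ADAMTS12 from −84 to −78 and in MMP20 from −112 to −106 relative to the start site. STAT motifs were found in 0 of 39 member promoters and in 7.66% of all promoters, and TCF motifs in 0 of 39 and in 2.62%. GC content differed between the printed windows, with 33.6% and 34.4% in MMP7 and MMP10 and 56.8% and 73.6% in MMP14 and ADAM12. A match describes letters only, and no binding was measured here.

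Expression was deposited as FPKM, the fragments counted on a gene scaled to its length and to the depth of the sample. Between 15222452 and 26949026 reads per sample were counted on genes, and the reads behind each value could be recovered. Changes are given as log2 fold changes of FPKM + 0.5, BCL9 KD minus NS control, from limma over the 13745 genes that averaged 0.5 FPKM or more, with an adjusted p under 0.05 as the threshold. The added 0.5 FPKM shrinks the changes of low genes below the ratio of their levels. BCL9 was at 6.25, 6.24 and 5.34 FPKM in NS control and 2.86, 2.78 and 2.59 FPKM in BCL9 KD samples, so the targeted gene followed the labels (log2 fold change −0.99, limma adjusted p = 0.00773). A single library stood apart: in NS control replicate 1, genes in the lowest decile of transcript GC content had a median log2 deviation of −0.509 from the mean of the 6 samples, against −0.0630 to 0.193 in the others. Of the defining markers, those of basal epithelium were high, with KRT5 at 398 and 413 FPKM. All 7 were tested, and 1 of them, COL17A1, rose from 37.4 to 50.8 FPKM (log2 fold change 0.44, limma adjusted p = 0.0219), while the sum of the 7 ran from 1146 to 1322 FPKM in NS control and from 1195 to 1240 FPKM in BCL9 KD samples. Those of luminal epithelium were mixed, with KRT8 at 293 and 244 FPKM, ESR1 under 0.1 FPKM and PGR at 0 reads. Their sum ran from 435 to 552 FPKM in NS control and from 396 to 414 FPKM in BCL9 KD samples, without overlap. Of the 5 luminal markers tested, 0 were called. Fibroblast markers, 8 genes in all, summed to between 0.710 and 0.737 FPKM in NS control and between 0.768 and 0.905 FPKM in BCL9 KD samples, with COL3A1 at 0 reads, and the 5 leukocyte markers summed to at most 0.172 FPKM, with MS4A1 at 0 reads. The 3 endothelial markers summed to between 1.75 and 2.34 FPKM in NS control and between 3.15 and 3.95 FPKM in BCL9 KD samples, nearly all of it PECAM1, which rose (limma adjusted p = 0.0477), while VWF and CDH5 were at most 0.0534 FPKM. The part of PECAM1-expressing cells in the results was not tested.

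In BCL9 KD cells, MMP28, MMP2 and MMP14 rose and ADAM12 fell, while no TIMP or ADAMTS passed the threshold. These 4 were 17.4% of the 23 members that could be tested, against 5.87% of all genes tested, and the 3 that rose and the 1 that fell stand beside 2.96% and 2.91% of all genes. The 4 calls held without NS control replicate 1, NS control replicate 3 or BCL9 KD replicate 1. In these fits limma called 5 members each, beside 721, 1712 and 736 of all 13745 genes. The 4 calls were lost without NS control replicate 2, BCL9 KD replicate 2 or BCL9 KD replicate 3. There, limma called 12, 13 and 5 of all genes. The groups did not overlap for 12 of the 23 (52.2%), with 9 higher and 3 lower in BCL9 KD, against 34.2% of all genes. The median log2 fold change was 0.20 over the 23 members and 0.04 over all genes, with 15 members above 0 and 8 below. By family, the median was 0.34 over 7 MMPs, 0.30 over 3 TIMPs, 0.07 over 8 ADAMs and 0.11 over 5 ADAMTSs. The MMP median was 0.17 without NS control replicate 1 and between 0.32 and 0.41 without any other sample, the TIMP median stayed between 0.27 and 0.34, and those of the ADAMs and ADAMTSs ran from 0.02 to 0.14 and from 0.07 to 0.16. The other 43 members had a mean under 0.5 FPKM. These are levels in whole flasks, in which fewer cells of a kind and less RNA per cell cannot be told apart.

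TIMP3 was the highest of the 66 members, and its 6 values from 257 to 300.3 FPKM did not overlap those of any other. TIMP1 came next and lay above MMP14, the highest protease, without overlap. Below MMP14 came ADAM15, ADAM9, ADAM17 and ADAM10, and of these neighbours in the order only ADAM17 and ADAM10 had ranges that were apart. From ADAM10 down, the neighbours with separate ranges were ADAMTS9 above ADAMTS3 and MMP15 above ADAMTS1. All other neighbours among the 23 overlapped, so their order is not resolved by these samples. The plot of levels by sample shows that the differences between members span more than those between groups.

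**Figure D1:**
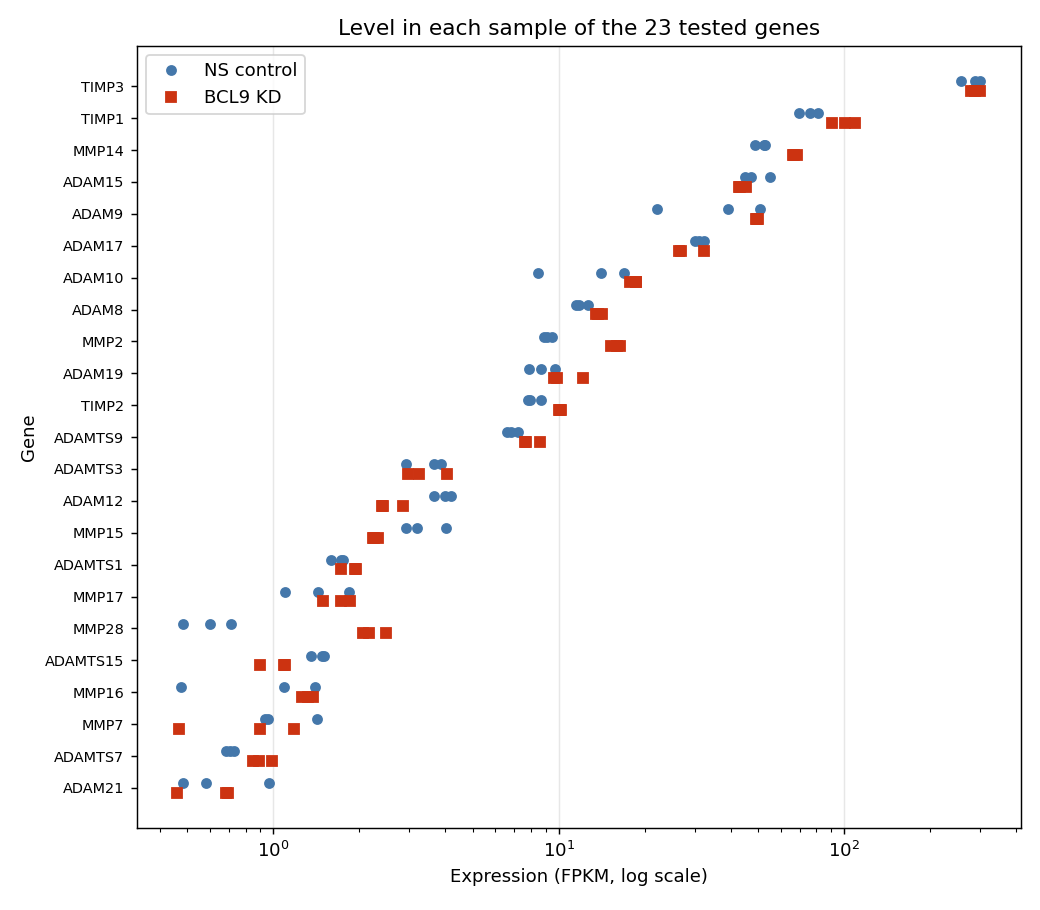
Expression in FPKM (horizontal log axis) of the 23 members with a mean of at least 0.5 FPKM, ordered by mean level, with a point for each NS control sample (blue circles) and each BCL9 KD sample (red squares). The levels run from 300.3 FPKM for TIMP3 to under 1 FPKM for ADAM21, and the groups of MMP14, MMP2, MMP28 and ADAM12 do not overlap.

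Among the MMPs, the pair at the cell surface made up most of the transcript level. MMP14 (ENSG00000157227, chromosome 14 from 22836557 to 22849027 of hg38) encodes MT1-MMP, the membrane-type protease that cleaves fibrillar collagen and activates MMP2. It was at 52.3, 52.8 and 48.7 FPKM in NS control and 66.5, 68.4 and 66.2 FPKM in BCL9 KD samples. All BCL9 KD values were above all NS control values, and the log2 fold change was 0.38 (SE 0.0638, limma adjusted p = 0.029). MMP2 (ENSG00000087245, chromosome 16 from 55389700 to 55506691) encodes gelatinase A, which degrades type IV collagen and denatured collagen. It was at 9.44, 9.12 and 8.91 FPKM in NS control and 15.2, 16.4 and 16.0 FPKM in BCL9 KD samples. The 2 groups were well apart, with a ratio of 1.73 and a log2 fold change of 0.76 (SE 0.0683, limma adjusted p = 0.00753). MMP14 and MMP2 together were between 86.7% and 87.7% of the summed MMP level in NS control and between 88.4% and 89.4% in BCL9 KD samples. MMP2 took 13.2% ± 0.351 (SD, n = 3) of that sum in NS control and 17.0% ± 0.461 in BCL9 KD cells, while MMP14 took 74.0% ± 0.524 and 71.8% ± 0.554.

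MMP28 (ENSG00000271447, chromosome 17 from 35756249 to 35795707) encodes epilysin, a secreted MMP of keratinocytes and other epithelia, and had the largest ratio of the tested members. It was at 0.709, 0.484 and 0.598 FPKM in NS control, from 46, 28 and 26 reads, and at 2.16, 2.06 and 2.48 FPKM in BCL9 KD samples, from 109, 159 and 111 reads. The ratio of the means was 3.74, and the log2 fold change was 1.32 (SE 0.136, limma adjusted p = 0.00976). The gene overlaps TAF15 on the opposite strand, whose level was 44.1 FPKM in NS control and 49.4 FPKM in BCL9 KD cells (limma adjusted p = 0.347). The strand setting of the counting is not given in the sources used here, so reads of these genes, and of any other member that overlaps a gene on the opposite strand, may not be told apart there.

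The other membrane-type MMPs did not pass the threshold. MMP15, or MT2-MMP, was at 4.02, 3.20 and 2.91 FPKM in NS control and 2.25, 2.23 and 2.33 FPKM in BCL9 KD samples. Its groups did not overlap, in the opposite direction to MMP14, and the log2 fold change was −0.48 (SE 0.122, limma adjusted p = 0.064). With each sample left out, MMP15 passed in 1 of 6 fits, the one without NS control replicate 3 (limma adjusted p = 0.0406). Its limma adjusted p reached 0.223 without BCL9 KD replicate 2. MMP16, or MT3-MMP, was at 0.476, 1.09 and 1.40 FPKM in NS control and 1.38, 1.26 and 1.32 FPKM in BCL9 KD samples, from between 131 and 411 reads. The groups overlapped, and the log2 fold change of 0.34 had a 95% interval from −0.24 to 0.93 (limma adjusted p = 0.394). The low value is that of NS control replicate 1, whose MMP16 level was 1.39 below the other controls on the log2 scale, and without this replicate the log2 fold change was 0.06 (SE 0.133, limma adjusted p = 0.783), against 0.55 without NS control replicate 3. MMP17, the MT4-MMP held by a lipid anchor, was at 1.46 ± 0.371 FPKM (SD, n = 3) in the controls and 1.69 ± 0.181 FPKM in BCL9 KD cells, which overlapped (log2 fold change 0.18, from 0.04 without NS control replicate 3 to 0.31 without NS control replicate 2). The 2 remaining genes of this type, MMP24 and MMP25, had means of at most 0.240 FPKM in either group.

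The secreted collagenases, stromelysins and matrilysins lie mostly in a row of 9 MMP genes on chromosome 11, from 102520508 to 102955734 of hg38, and were nearly silent in these cells. MMP7, the matrilysin of epithelia and the highest of the row, was at 1.42, 0.957 and 0.933 FPKM in NS control and 0.901, 1.18 and 0.467 FPKM in BCL9 KD samples. Its groups overlapped, and the log2 fold change was −0.27 (SE 0.239, limma adjusted p = 0.483), from −0.45 without BCL9 KD replicate 2 to −0.05 without BCL9 KD replicate 3. MMP1, the interstitial collagenase, had 10, 14 and 3 reads in NS control and 21, 29 and 17 reads in BCL9 KD samples. MMP10, or stromelysin-2, had 7, 7 and 3 reads in NS control and 15, 20 and 21 reads in BCL9 KD samples. Every BCL9 KD sample had more reads of both genes than any NS control sample, and the ratios of mean FPKM were 2.52 for MMP1 and 3.44 for MMP10. MMP8, the collagenase of neutrophils, had 2 to 4 reads in NS control and 5 to 7 in BCL9 KD samples, and MMP13 had 0 in every NS control sample and 3, 1 and 0 in BCL9 KD samples. MMP3, or stromelysin-1, had 1 read in a single NS control sample, and MMP12, MMP20 and MMP27 had 0 reads in all 6. A count of 0 allows up to 3 reads in a sample, so such genes are undetected at this depth.

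The genes under 0.5 FPKM were too low for the comparison above, so those with a mean of at least 10 reads were tested by voom on the recovered reads, a setting chosen after seeing the data. It took in 33 members, and of the 23 tested above it called MMP28, MMP2, MMP14, TIMP1, ADAM12 and MMP15, against 9.75% of 14560 genes. MMP1, MMP10 and ADAMTS4 reached the minimum of 10 reads only through the group in which they were high, so their differences are given as a description, with no test. The log2 fold change on the read scale was 1.37 (SE 0.413) for MMP1 and 1.60 (SE 0.419) for MMP10. ADAMTS4, an aggrecanase, had 56, 27 and 21 reads in NS control and 6, 5 and 4 reads in BCL9 KD samples. It was lower in every BCL9 KD sample (log2 fold change −2.67, SE 0.458). MMP11, or stromelysin-3, had between 23 and 56 reads in all 6 samples with overlap, and its start overlaps CHCHD10 on the opposite strand, so the reads of the pair may not be told apart there. MMP9, or gelatinase B, had 8, 9 and 6 reads in NS control and 3, 7 and 12 reads in BCL9 KD samples, too few for a test. The plot of members with few reads shows MMP28, MMP1, MMP10, ADAMTS4, ADAMTS13 and MMP16.

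**Figure D2:**
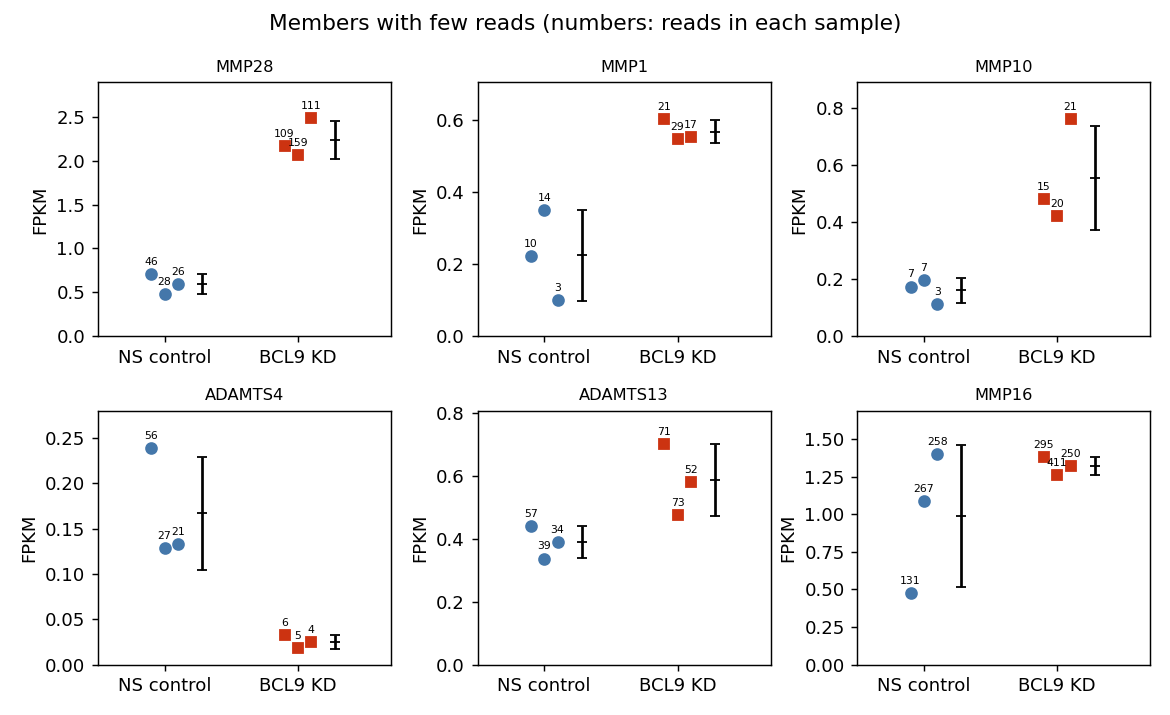
FPKM (vertical axes, each starting at 0) of 6 members in each NS control sample (blue circles) and BCL9 KD sample (red squares), with the number of reads above each point and a bar for the mean ± SD. MMP28, MMP1, MMP10 and ADAMTS13 are higher and ADAMTS4 is lower in all BCL9 KD samples, while the MMP16 control values spread from 0.476 to 1.40 FPKM.

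TIMP3 and TIMP1 were measured at higher levels than any of the proteases. The mean of TIMP2 was near that of MMP2 in NS control (8.12 and 9.16 FPKM) and below it in BCL9 KD cells (10.1 and 15.9 FPKM). TIMP3, which is held in the matrix, was at 300.0, 288 and 257 FPKM in NS control and 300.3, 288 and 278 FPKM in BCL9 KD samples. These overlapped almost wholly, with a log2 fold change of 0.04 that turned negative under median-of-ratios scaling (−0.00499) and quantile normalization (−0.11). TIMP1, a secreted inhibitor of many MMPs but a weak one of MMP14, was at 81.1, 69.4 and 75.9 FPKM in NS control and 91.0, 109.6 and 101 FPKM in BCL9 KD samples. All BCL9 KD values were above all NS control values, yet the change narrowly missed the threshold (log2 fold change 0.41, SE 0.095, limma adjusted p = 0.053). With each sample left out, TIMP1 passed in 1 of 6 fits, the one without BCL9 KD replicate 1 (limma adjusted p = 0.0477). Its limma adjusted p reached 0.211 without BCL9 KD replicate 2. TIMP2, the partner of MMP14 in the activation of MMP2, was at 8.66, 7.93 and 7.78 FPKM in NS control and 10.1, 10.2 and 9.99 FPKM in BCL9 KD samples. It too lay without overlap and missed the threshold (log2 fold change 0.30, SE 0.0721, limma adjusted p = 0.0566). TIMP4 had 2 reads in NS control replicate 1 and 0 in the others.

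After a correction of each sample for GC content, chosen after seeing the data, TIMP1 (log2 fold change 0.51, limma adjusted p = 0.018) and TIMP2 (0.39, limma adjusted p = 0.0176) passed the threshold, and so did MMP15 (−0.38, limma adjusted p = 0.0427). This setting called 7 of 23 members (30.4%), 5 higher and 2 lower, against 9.97% of all genes, and MMP28, MMP2, MMP14 and ADAM12 were among them. The summed level of the 23 MMP genes was 71.2, 70.9 and 65.7 FPKM in NS control and 92.0, 94.8 and 93.0 FPKM in BCL9 KD samples. The summed level of the TIMPs was 389.9, 365 and 341 FPKM in NS control and 401, 408 and 389 FPKM in BCL9 KD samples. The ratio of the TIMP sum to the MMP sum was 5.27 ± 0.176 (SD, n = 3) in NS control and 4.28 ± 0.094 in BCL9 KD cells. TIMP3 supplied 77.1% ± 1.69 of the TIMP sum in NS control and 72.3% ± 2.19 in BCL9 KD cells, and TIMP1 20.7% ± 1.64 and 25.1% ± 2.18. These are ratios of RNA levels and do not measure free protease.

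ADAM12 (ENSG00000148848, chromosome 10 from 126012381 to 126388455), which sheds heparin-binding EGF and binds syndecans and integrins, was the member that fell. It was at 3.65, 4.18 and 4.01 FPKM in NS control and 2.85, 2.43 and 2.41 FPKM in BCL9 KD samples. The groups did not overlap, and the log2 fold change was −0.54 (SE 0.0998, limma adjusted p = 0.0345). The ADAMs with the highest levels were ADAM9, ADAM15, ADAM17 and ADAM10, which together made up 83.2% ± 2.09 (SD, n = 3) of the summed ADAM level in NS control and 83.2% ± 0.18 in BCL9 KD cells. None of the 4 passed the threshold. ADAM17, the main sheddase of TNF and of several EGF-like ligands, was at 31.1 ± 1.08 FPKM in NS control and 28.5 ± 3.41 FPKM in BCL9 KD cells (log2 fold change −0.13, limma adjusted p = 0.404), from −0.22 without BCL9 KD replicate 1 to −0.07 without BCL9 KD replicate 3. ADAM15 was at 49.0 ± 5.19 and 43.7 ± 1.27 FPKM, and overlapped (log2 fold change −0.16, limma adjusted p = 0.288, and −0.07 without NS control replicate 1 or after the GC correction described above).

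ADAM10, the sheddase that makes the first cut in Notch receptors, was at 8.43, 14.1 and 16.9 FPKM in NS control and 18.6, 17.8 and 18.7 FPKM in BCL9 KD samples. The groups did not overlap, but the spread of the controls was wide (log2 fold change 0.52, SE 0.227, limma adjusted p = 0.191). ADAM9, a widely expressed sheddase, was at 22.1, 39.2 and 50.6 FPKM in NS control and 49.2, 49.5 and 49.9 FPKM in BCL9 KD samples. Its groups overlapped (log2 fold change 0.48, SE 0.271, limma adjusted p = 0.289). NS control replicate 1 was the lowest sample for both genes, and its log2 ratio to the other controls was −0.88 for ADAM10 and −1.03 for ADAM9. Without it, the log2 fold changes were 0.24 for ADAM10 (limma adjusted p = 0.142) and 0.15 for ADAM9 (limma adjusted p = 0.408), and without NS control replicate 3 they were 0.73 and 0.74.

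In this replicate, low values were more frequent among members of low GC content. The transcripts of ADAM9, ADAM10 and MMP16 held 38.4%, 43.7% and 43.7% GC. The other 5 members between 42.0% and 44.6% GC had log2 ratios of 0.59 for MMP7, −0.07 for ADAM17, −0.38 for ADAMTS3, −0.32 for ADAM21 and −0.02 for ADAMTS9. After the GC correction, the log2 fold changes were 0.27 for ADAM9, 0.48 for ADAM10 and 0.30 for MMP16. The cause of the low values in this replicate was not tested. Of the 11 tested members under 50% GC, NS control replicate 1 was below the mean of the other controls in 8, with a median log2 ratio of −0.17. Of the 12 members at or over 50% GC, it was below in 1, with a median of 0.13. Over all genes tested, the medians were −0.25 and 0.10 on the same split. Of the members called, MMP14, MMP2 and MMP28 had between 55.4% and 59.1% GC and log2 ratios between 0.04 and 0.39 in this replicate, and ADAM12 had 49.9% GC and a log2 ratio of −0.17. With the same correction, the log2 fold changes of these 4 were 1.43 for MMP28 (limma adjusted p = 0.00659), 0.85 for MMP2 (limma adjusted p = 0.0036), 0.49 for MMP14 (limma adjusted p = 0.0157) and −0.47 for ADAM12 (limma adjusted p = 0.0469). Without this replicate, limma called 5 members, beside 721 of all 13745 genes. These members were MMP28, MMP2, MMP14 and ADAM12 with TIMP2 added (limma adjusted p = 0.0378).

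**Figure D3:**
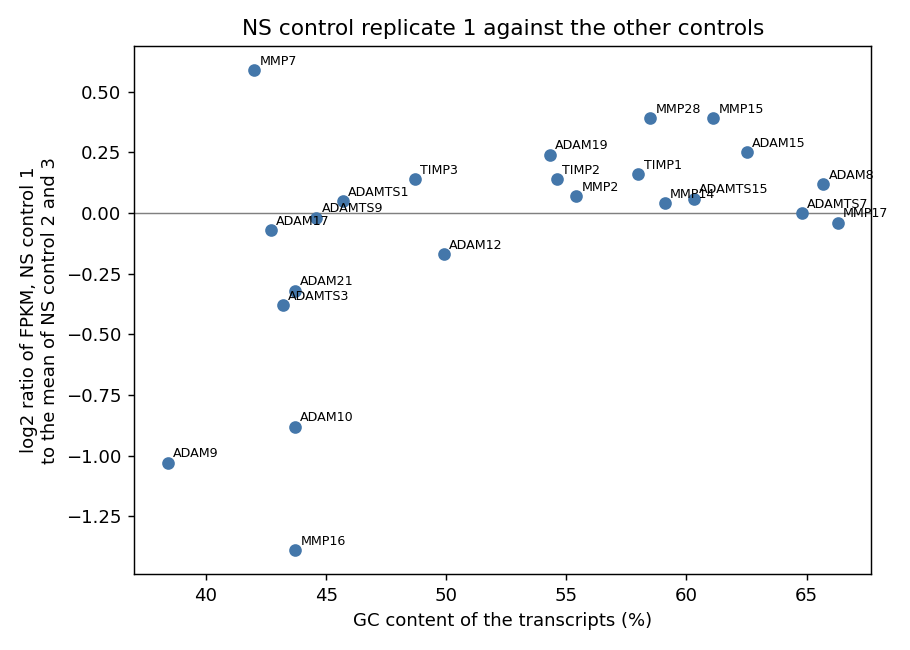
Log2 ratio of FPKM in NS control replicate 1 to the mean of the other 2 controls (vertical axis) against the GC content of the transcripts in percent (horizontal axis), with a point for each of the 23 tested members. ADAM9, ADAM10 and MMP16 lie at or below −0.88 and at or under 43.7% GC, and the members over 50% GC lie near or above 0.

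The other ADAMs tested showed small differences. ADAM8, a protease of leukocytes and of many tumors, was at 12.0 ± 0.614 FPKM (SD, n = 3) in the controls and 13.8 ± 0.331 FPKM in BCL9 KD cells, without overlap but short of the threshold (log2 fold change 0.20, limma adjusted p = 0.129). ADAM19 was at 8.75 ± 0.95 and 10.6 ± 1.4 FPKM, and its groups overlapped (log2 fold change 0.25, limma adjusted p = 0.218), from 0.15 without BCL9 KD replicate 1 to 0.33 without NS control replicate 1. CYFIP2, which overlaps the end of ADAM19 on the opposite strand, fell from 10.4 to 6.82 FPKM (limma adjusted p = 0.034). ADAM21, a testis protease, was at 0.676 ± 0.254 and 0.613 ± 0.132 FPKM, from 100 and 94 reads per group in all. The 8 ADAMs without a catalytic zinc site, which act in cell adhesion, all had means under 0.5 FPKM, and the most reads of any in a sample were 66.

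No ADAMTS passed the threshold, and the summed level of the 19 genes was 15 ± 0.414 FPKM (SD, n = 3) in NS control samples and 16.0 ± 1.36 FPKM in BCL9 KD cells. ADAMTS9, a protease of versican and aggrecan, supplied 45.6% ± 1.53 and 49.7% ± 0.819 of it, at 6.80, 7.21 and 6.58 FPKM in NS control and 8.58, 7.61 and 7.67 FPKM in BCL9 KD samples. The groups did not overlap (log2 fold change 0.20, SE 0.0809, limma adjusted p = 0.171). ADAMTS15, another protease of versican and aggrecan, was at 1.48, 1.5 and 1.35 FPKM in NS control and 1.09, 0.896 and 1.1 FPKM in BCL9 KD samples, also without overlap (log2 fold change −0.35, SE 0.122, limma adjusted p = 0.124). ADAMTS1, likewise a versican protease, was at 1.69 ± 0.0914 and 1.87 ± 0.13 FPKM, and ADAMTS3, which processes procollagens and the precursor of VEGF-C, at 3.49 ± 0.512 and 3.42 ± 0.574 FPKM, both with overlap. ADAMTS7 was at 0.705 ± 0.0246 and 0.909 ± 0.0733 FPKM (log2 fold change 0.22, limma adjusted p = 0.315). It overlaps MORF4L1 on the opposite strand, which was at 46.9 and 62.2 FPKM (limma adjusted p = 0.0511). ADAMTS13, which cleaves von Willebrand factor, had 57, 39 and 34 reads in NS control and 71, 73 and 52 reads in BCL9 KD samples, and did not pass by voom (log2 fold change 0.54, limma-voom adjusted p = 0.158). Its start overlaps REXO4 on the opposite strand, which was at 23.2 FPKM in NS control and 19.9 FPKM in BCL9 KD cells (limma adjusted p = 0.167). ADAMTS17 had 31, 27 and 17 reads in NS control and 20, 15 and 4 reads in BCL9 KD samples (log2 fold change −1.16, limma-voom adjusted p = 0.117).

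**Figure D4:**
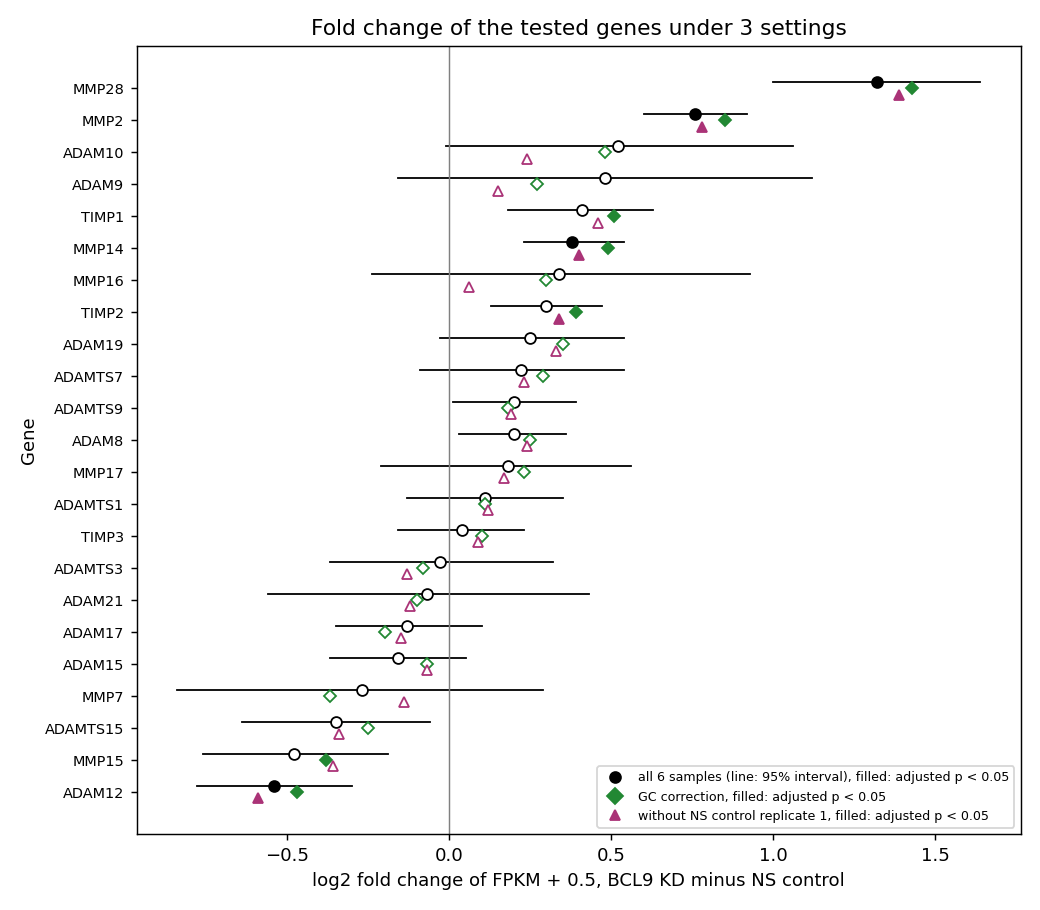
Log2 fold change of FPKM + 0.5 (horizontal axis, BCL9 KD minus NS control) of the 23 tested members with all 6 samples (black circles, lines for the 95% interval), after the GC correction (green diamonds) and without NS control replicate 1 (purple triangles), filled where the limma adjusted p was under 0.05. MMP28, MMP2, MMP14 and ADAM12 are filled in all 3 settings, and ADAM9, ADAM10 and MMP16 move toward 0 without this replicate.

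The remaining members were undetected or under a mean of 0.5 FPKM. Of the 66, 11 had 0 reads in all 6 samples, and these were ADAM7, ADAM18, ADAM29, ADAM30, ADAMTS2, ADAMTS5, ADAMTS12, MMP12, MMP20, MMP26 and MMP27. A further 22 had reads but a mean under 10 and at most 12 reads in a sample. Beside MMP3, MMP8, MMP9, MMP13 and TIMP4, these were MMP19, MMP21, MMP23B, MMP25, ADAM2, ADAM20, ADAM22, ADAM28, ADAM33, ADAMTS6, ADAMTS8, ADAMTS10, ADAMTS14, ADAMTS16, ADAMTS18, ADAMTS19 and ADAMTS20. MMP23B shares its sequence with the pseudogene MMP23A, so its counts are uncertain. ADAM11, ADAM23, ADAM32 and MMP24 had a mean of at least 10 reads and were not called by voom, with adjusted p between 0.252 and 0.774. Together with MMP1, MMP10, MMP11, ADAMTS4, ADAMTS13 and ADAMTS17, these made up the 10 members that were added by the test on reads.

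Genes around these proteases were counted by lists that hold their activators, other inhibitors and binding partners, and substrates, beside the 5.87% of all genes called. The lists were chosen with earlier results of these data known, so the counts only describe them. Of 9 proteases that activate MMPs or ADAMs, 7 were tested, and 1 rose and 0 fell. It was PLAT, the tissue plasminogen activator, at 38.9, 38.5 and 40.8 FPKM in NS control and 78.6, 82.4 and 81.9 FPKM in BCL9 KD samples (log2 fold change 1.03, limma adjusted p = 0.00269). Its target PLG, the precursor of plasmin, had 0 reads in all samples, and ST14, or matriptase, the highest of the list, was at 121 ± 11.5 and 112 ± 1.26 FPKM (limma adjusted p = 0.402). Of 18 other inhibitors and binding partners, 11 were tested, with 3 higher and 2 lower. LCN2, which binds MMP9 and slows its breakdown, rose from 45.2 ± 2.44 to 121 ± 22.6 FPKM (log2 fold change 1.39, limma adjusted p = 0.00942). SPOCK1, a matrix proteoglycan known to inhibit membrane-type MMPs, rose from 4.64 ± 0.249 to 10.1 ± 0.819 FPKM (log2 fold change 1.05, limma adjusted p = 0.00703). CLDN1, a tight junction protein that recruits the precursor of MMP2, rose from 30.9 ± 2.31 to 43.0 ± 0.189 FPKM (log2 fold change 0.47, limma adjusted p = 0.0236). ITGB3, the integrin subunit that docks MMP2 as αVβ3, fell from 13.9 to 6.99 FPKM (log2 fold change −0.95, limma adjusted p = 0.00942), in the opposite direction to MMP2. THBS1, which binds MMP2 and lowers its activation, fell from 1025 ± 83.6 to 666 ± 22.7 FPKM (log2 fold change −0.62, limma adjusted p = 0.0188). RECK, a membrane inhibitor of MMP14, MMP2 and MMP9, was at 1.82 ± 0.238 and 2.10 ± 0.0602 FPKM (limma adjusted p = 0.356), and BSG, the MMP inducer also known as EMMPRIN, at 126 ± 5.86 and 160.3 ± 15.2 FPKM (limma adjusted p = 0.0676).

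Of 10 genes for partners of ADAM10 and ADAM17, which are tetraspanins, iRhoms and proteins that guide traffic, 9 were tested, with 0 higher and 1 lower. RHBDF2, or iRhom2, which carries ADAM17 to the cell surface, fell from 7.08 ± 0.45 to 5.16 ± 0.175 FPKM (log2 fold change −0.42, limma adjusted p = 0.0363). The highest of this list, FRMD8 and TSPAN17, were at 14.6 and 14.1 FPKM in NS control and 13.9 and 12.2 FPKM in BCL9 KD cells, short of the threshold (limma adjusted p of 0.596 and 0.178). Of 24 substrates shed by ADAM10 or ADAM17, 21 were tested, and 3 rose and 3 fell. Those that rose were ligands of the EGF receptor. AREG was at 29.8, 28.3 and 33.2 FPKM in NS control and 63.3, 77.5 and 80.4 FPKM in BCL9 KD samples (log2 fold change 1.26, limma adjusted p = 0.00736). HBEGF rose from 12.7 ± 0.795 to 24.6 ± 1.54 FPKM (log2 fold change 0.92, limma adjusted p = 0.00729) and EREG from 25.6 ± 4.43 to 45.6 ± 1.75 FPKM (log2 fold change 0.83, limma adjusted p = 0.0236). TGFA, a further ligand of the same receptor, went the other way, from 44.4 ± 3.5 to 34.0 ± 1.42 FPKM (log2 fold change −0.38, limma adjusted p = 0.0466). The Notch receptors NOTCH1 and NOTCH2 fell as well, with changes of −0.51 each on the log2 scale (limma adjusted p of 0.0337 and 0.0283). The syndecans SDC1 and SDC4, the highest of the list, were at 363 and 193 FPKM in NS control and 329 and 209 FPKM in BCL9 KD cells, both with overlap (limma adjusted p of 0.332 and 0.417). The median log2 fold change was 0.13 over the activating proteases, 0.17 over the inhibitors and binding partners, −0.09 over the ADAM partners and 0.10 over the substrates, beside 0.04 over all genes. The calls in these lists come from the fit of all 6 samples. Without NS control replicate 2, BCL9 KD replicate 2 or BCL9 KD replicate 3, limma called only 12, 13 and 5 of all genes.

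When each of the 6 samples was left out, the log2 fold changes of the 4 members called moved little, from 1.24 to 1.39 for MMP28, 0.74 to 0.79 for MMP2, 0.35 to 0.41 for MMP14 and −0.61 to −0.50 for ADAM12. The adjusted p without NS control replicate 2, BCL9 KD replicate 2 and BCL9 KD replicate 3 was between 0.06 and 0.0803 for MMP28 and MMP2 and between 0.118 and 0.172 for MMP14 and ADAM12. In these 3 fits limma called 0 members, beside 12, 13 and 5 of all 13745 genes. A limma unadjusted p under 0.05 was found for 7, 7 and 8 of the 23, and for 2620, 2409 and 2330 of all genes. Voom on the recovered reads of the same 13745 genes in all 6 samples called 1403, with 7 of the 23 members among them.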

How the data were processed

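The authors isolated total RNA from a flask per replicate and had NEBNext Ultra libraries sequenced. The submitters' processing notes name CASAVA, STAR, HTSeq 0.6.1 and hg38, and the methods also name Tophat for parsing the alignments and Cufflink without a step. The authors deposited FPKM per gene and sample, with the gene length in bases that they used, in other units. The strand setting of HTSeq is not given in the sources used here. FPKM multiplied by length gave whole multiples of the value of 1 read for 100% of the values (tolerance 0.1), which gave the reads. No molecular identifiers were used, so reads copied from the same molecule cannot be told apart. The spread of read counts is therefore not counting error alone.

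BCL9 KD was compared with NS control with limma (empirical Bayes, mean-variance trend) on log2(FPKM + 0.5), over genes with a mean of at least 0.5 FPKM, with Benjamini-Hochberg adjustment. The members and gene lists were chosen with earlier results of these data known. Named were all members with a mean of at least 0.5 FPKM, MMP1, MMP2, MMP3, MMP7 to MMP14 and MMP16, and all TIMPs. Of the lists of genes around the proteases, the genes called, ITGB3, RECK and the 2 highest were named. PLG and the cell type markers were named outside this rule. Further members, and genes that overlap members, were named after their values were seen. After seeing the data, the settings added were voom on genes with at least 10 reads, and a loess correction (span 0.3) of each sample for transcript GC content (GRCh37 annotation, known for 98.8% of the genes tested), with and without a replicate block. Both groups carry the replicate numbers 1 to 3. Versions were limma 3.58.1 in R 4.3.3 and Python 3.11.15, numpy 2.4.6, pandas 2.3.3 and matplotlib 3.10.9, and the comparison was tested on simulated data.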

Additional observations from a re-analysis of the deposited data

How the results depend on the processing

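The genes called numbered 807 (407 higher, 400 lower), and the members called 4. Without a filter these were 142 and 2, by voom 1403 and 7, by voom on genes with at least 10 reads 1420 and 8 (of which MMP10 and ADAMTS4 reached that minimum only through the group where they were high), and after the GC correction 1370 (843 higher, 527 lower) and 7. Median-of-ratios scaling gave 536 genes and no trend 332. Leaving out each replicate in turn, the genes ran from 5 to 1712 and the members from 0 to 5. Same-numbered samples did not deviate together (correlations of −0.147, −0.0884 and −0.00287). With 3 samples a group these values cannot settle whether same-numbered flasks were handled together, and the labels do not say. With the replicate block, limma called 0 genes (3235 at an unadjusted p under 0.05) and 0 members (9 at an unadjusted p under 0.05), and BCL9 had −0.99 (limma adjusted p = 0.0656). The GC correction with the replicate block gave 310 genes and 4 members. BCL9 stayed between −1.06 and −0.95 with each replicate left out and was called in 3 of 6 fits.

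The direction turned for members near 0. TIMP3 had −0.00499 under median-of-ratios scaling and −0.11 under quantile normalization, and ran from −0.03 to 0.09 with each replicate left out. ADAMTS3 ran from −0.14 to 0.06 and ADAM21 from −0.18 to 0.10 in those fits. MMP28, MMP2, MMP14 and ADAM12 kept their direction in all settings run, and MMP14 missed the threshold without a filter (limma adjusted p = 0.0598), under median-of-ratios scaling (0.0692) and without the trend (0.0551). ADAM12 missed it without a filter (0.0898) and with the GC correction and replicate block (0.123). The causes of these shifts were not tested. With 3 samples a group, the smallest two-sided exact permutation p is 0.1, and members with few reads are limited by depth.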
